A study of Mus musculus with 8 samples.

Results

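Ciliary and axonemal genes were described in the hearts of mice with a cardiac-specific knockout of Yin-Yang 1 (YY1), a transcription factor encoded by Yy1, after 1 week of pressure load. The genes were taken by symbol from the count tables. Symbols of the Cfap (cilia and flagella associated protein), Dnah (axonemal dynein heavy chain) and Stpg (sperm-tail PG-rich repeat) series gave 30 axonemal genes, and those of the Ift (intraflagellar transport) and Bbs (Bardet-Biedl syndrome) series, with Ttc8, which encodes BBS8, gave 23 transport genes. These 53 genes stood among 24411 symbols in the tables, and 39 of them, 16 axonemal and 23 transport, held enough reads to be tested. The set was proposed after Stpg1 and Cfap46 had appeared among the largest increases in YY1 KO hearts, so their differences between the genotypes, and those of the other genes of the set, are given as a description. A threshold on the adjusted p is used to sort these genes and to set their number beside that over all genes, and supports nothing about them.

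The YY1 KO group was 4 C57BL/6 mice labelled as cardiac-specific YY1 knockouts. The control group was 4 C57BL/6 mice that carried MerCreMer, a form of the Cre recombinase that stays outside the nucleus until an oestrogen receptor ligand lets it in. Every mouse of both groups had been operated on by transverse aortic constriction, a narrowing of the aorta that puts the left ventricle under pressure load, 1 week before the heart was taken. The labels give all mice as male. The sources used here do not give the promoter that drives MerCreMer, the age of the mice or the ligand schedule, and hearts without surgery were not analysed here. Polyadenylated RNA of snap-frozen heart was sequenced, and each library is labelled as a mouse of its own.

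Cilia are microtubule rods under the cell membrane that grow from a basal body. Primary cilia, found on many cell types, are immotile and serve as signalling antennae, for Hedgehog signals among others, while motile cilia carry dynein arms, radial spokes and a central microtubule pair that make them beat. Both kinds are built by intraflagellar transport, in which the IFT-B complex moves outward on kinesin-2, the IFT-A complex returns on dynein-2, and the BBSome carries membrane proteins as cargo. RFX factors are transcription factors known to bind X-box sites in promoters of ciliary genes.

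The libraries held 23869112 to 23966753 reads, of which 14582605 to 16000455 were assigned to genes. Yy1 itself had 18.04, 22.3, 19.9 and 23.8 CPM (read counts scaled to library size) in the YY1 KO hearts, against 33.8, 37.2, 36.3 and 37.1 CPM in the controls, and the groups did not overlap. An exact permutation test of its level (two-sided, 70 assignments) gave p = 0.0286, which is the lowest p that 4 against 4 libraries can give. The labelled tissue was checked by its markers, and the cardiomyocyte list summed to between 60682 and 84853 CPM in YY1 KO libraries and between 82179 and 106693 CPM in control libraries. The atrial light chain Myl7 stood at 11.5 CPM in YY1 KO 4 and at or below 0.194 CPM in every other library. The label of sex went against 4 libraries. YY1 KO 1 and 4 and control 1 and 4 held 2156 to 3512 reads of Xist, which is transcribed from the inactive X chromosome, and 0 to 2 reads of Y-linked genes, whereas the remaining 4 held 0 to 6 Xist reads and 2519 to 3018 Y-linked reads. Each genotype held 2 libraries of either kind.

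Of the 39 tested genes, 22 were called higher in YY1 KO hearts and 0 were called lower, where a call is a p, adjusted over all genes, of less than 0.05 in the quasi-likelihood test of edgeR. Over all 13506 tested genes, 21.6% were called higher and 17.3% lower. By class, 5 of 16 tested axonemal genes and 17 of 23 transport genes were called higher. The median log2 fold change (YY1 KO minus control) was 0.01 over the axonemal genes and 0.52 over the transport genes, beside 0.01 over all tested genes. Groups did not overlap for all 22 called genes, and YY1 KO lay above control without overlap for 21.8% of all tested genes. Since the set was proposed from this same contrast, nothing further is read from these shares.

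A fit within the 4 Y-holding libraries kept 15 of the 22 calls, 5 axonemal and 10 transport, and a fit within the 4 Xist-holding libraries gave 0 calls over all genes. An edgeR quasi-likelihood interaction of genotype with the kind of library found 0 of all 13506 genes at an adjusted p under 0.05 and 702 at an unadjusted p under 0.05. None of the 39 ciliary genes was among the 702, and with 2 libraries for each genotype and kind a difference between the kinds of library may go undetected.

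Summed over the 23 transport genes, levels reached 441 to 469 CPM in YY1 KO libraries and 336 to 369 CPM in control libraries. Summed over the 30 axonemal genes, they reached 92.4 to 99.4 CPM in YY1 KO libraries and 71.2 to 78.9 CPM in control libraries. Neither sum overlapped between the groups. The 5 called axonemal genes were then set apart, a split by the result itself, which favours a smaller difference in the rest. The other 25 axonemal genes summed to 46.3 to 52.3 CPM in YY1 KO libraries and 49.4 to 54.3 CPM in control libraries, and of the 11 of them that were tested 3 had a positive and 8 a negative log2 fold change. In whole heart, more cells of a type and more RNA per cell cannot be told apart.

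**Figure D1:**
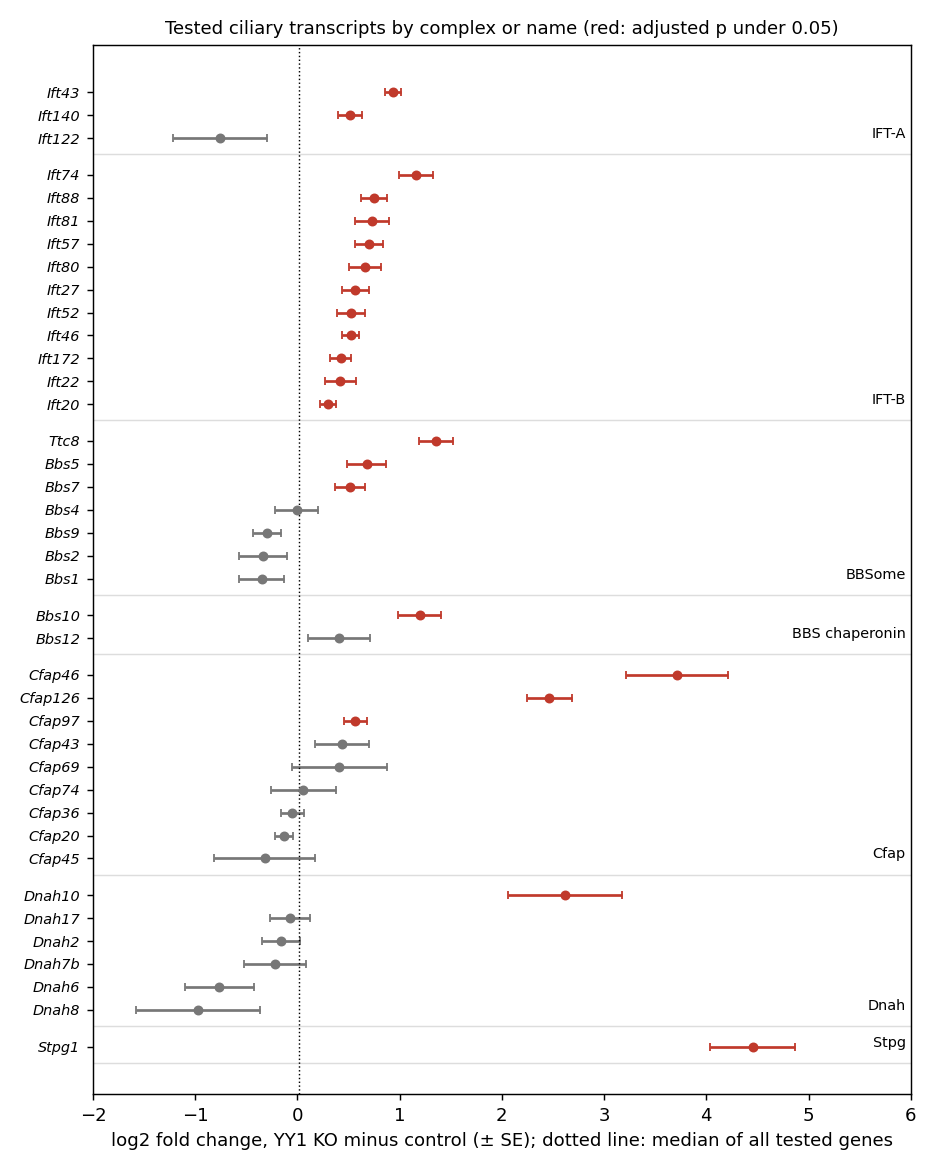
Log2 fold change, YY1 KO minus control, with its standard error, for each of the 39 tested ciliary genes, grouped by complex or gene name; red points were called at an adjusted p under 0.05 and the dotted line is the median of all tested genes at 0.01. Every point of an IFT-B gene under an Ift symbol is red and lies between 0.30 and 1.16, while the BBSome and Dnah points lie on both sides of 0.

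Levels per kilobase of exon overlapped between the classes. Averaged over all 8 libraries, Ift20 had 18.3, Ift43 15.6, Ift52 12.3 and Ift172 11.1 CPM per kilobase. The highest axonemal genes were Cfap36 with 5.41, Cfap20 with 5.15 and Cfap97 with 4.81 CPM per kilobase, all below Ift81 with 7.17. In these counts, which ignore strand, the highest dynein heavy chain was Dnah2 with 0.136 CPM per kilobase. That was below each of the 23 transport genes, the lowest of which was Bbs1 with 0.788. Of the strand-resolved reads of Dnah2, 54.0% lay on the opposite strand, so its rank among the heavy chains is uncertain.

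Among the axonemal genes the largest difference was in Stpg1 (chr4:135494790-135537803, plus strand in mm10), which encodes a sperm-tail PG-rich repeat protein. Stpg1 had 3.80, 6.72, 5.59 and 3.49 CPM in the YY1 KO hearts, against 0.141, 0.0712, 0.316 and 0.316 CPM in the control hearts. All 4 YY1 KO hearts stood more than 10 times above every control heart, and the log2 fold change was 4.45 ± 0.42 (SE). The control level rested on 13 reads in 4 libraries, against 305 reads in the YY1 KO libraries, and 2.20% of its strand-resolved reads lay opposite to the annotated strand. Stpg1 lies over part of Nipal3 on the other strand, which had 45.0 CPM in YY1 KO hearts and 40.1 CPM in control hearts and was not called.

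Cfap46 (chr7:139600951-139683817, minus strand) encodes a protein known from the central pair apparatus of the motile axoneme. Cfap46 had 2.61, 1.56, 2.92 and 2.87 CPM in the YY1 KO hearts, against 0, 0.214, 0.253 and 0.253 CPM in the control hearts. The groups were far apart, with 158 reads in the YY1 KO libraries and 11 reads in the control libraries, and control 1 held none. The log2 fold change was 3.71 ± 0.50.

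Cfap126 (chr1:171113918-171126967, plus strand), also called Flattop, is known for placing basal bodies in multiciliated cells. Cfap126 had 7.12, 7.47, 6.17 and 4.74 CPM in the YY1 KO hearts, against 1.06, 0.997, 1.39 and 1.14 CPM in the control hearts. YY1 KO 4 was the lowest of its group and still stood above 3 times the highest control, and the log2 fold change was 2.46 ± 0.22. The nearest gene to its 3′ end is Sdhc, a subunit of succinate dehydrogenase on the other strand 198 bases away, which was not called.

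Dnah10 (chr5:124725085-124834308, plus strand) was the only dynein heavy chain called. It encodes a heavy chain of an inner dynein arm. Dnah10 had 2.02, 1.70, 2.21 and 1.93 CPM in the YY1 KO hearts, against 0.211, 0, 0.316 and 0.696 CPM in the control hearts. The YY1 KO hearts lay close together while the controls ranged between none and 0.696 CPM. The log2 fold change was 2.62 ± 0.56, and without control 4 it was 3.38. Its neighbour Ccdc92, on the other strand 110 bases from the 3′ end of Dnah10, was also called higher, with a log2 fold change of 2.31 and means of 5.34 CPM in YY1 KO hearts and 1.07 CPM in control hearts.

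Cfap97 (chr8:46151771-46195590, plus strand), whose fly counterpart hemingway is needed for motile cilia and sperm, was the fifth. Cfap97 had 27.7, 32.5, 31.3 and 27.1 CPM in the YY1 KO hearts, against 23.2, 20.5, 18.6 and 17.7 CPM in the control hearts. Its log2 fold change of 0.57 ± 0.11 was smaller than those of the other axonemal genes called, at a level several times higher. Cfap97 overlaps Snx25 on the genome, which was called lower.

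**Figure D2:**
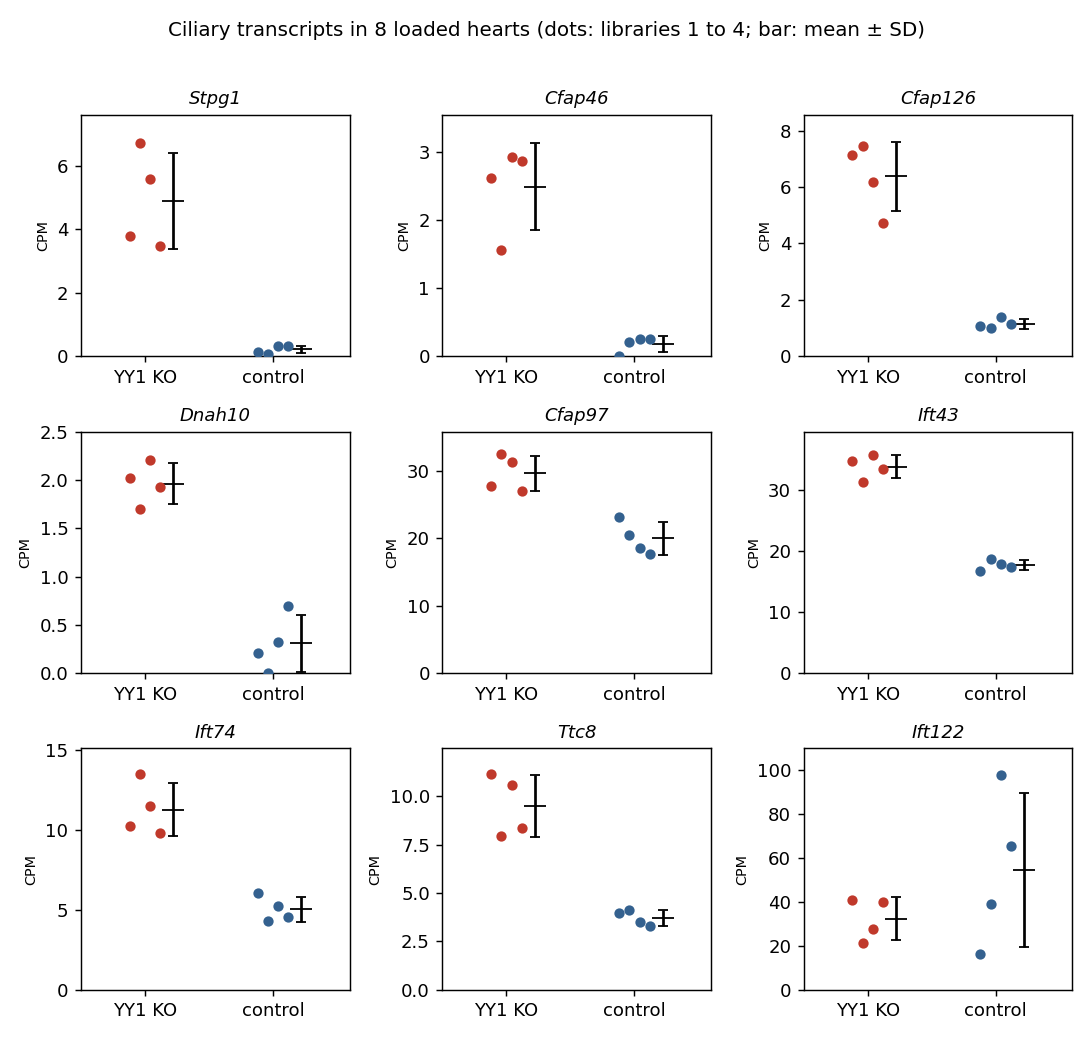
Level of 9 ciliary genes in CPM in each library, YY1 KO at left (red) and control at right (blue), with the mean and SD as bars. Groups are apart in every panel except that of Ift122, where YY1 KO libraries span 21.3 to 41.1 CPM and control libraries 16.3 to 97.9 CPM.

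The promoters of 3 of these genes are shown because each holds the hexamer GTTGCC, an arm of the X-box that RFX factors are known to bind, near the annotated start. Each is the RefSeq window (GRCm38.p6) from 250 bases before to 50 bases after the start, written 5′ to 3′ on the gene's strand, with matches to GTTGCC in either orientation in capitals. The window of Stpg1 is chr4:135495737-135496036, plus strand, that of Cfap46 chr7:139683766-139684065, minus strand and that of Dnah10 chr5:124724835-124725134, plus strand.
Stpg1: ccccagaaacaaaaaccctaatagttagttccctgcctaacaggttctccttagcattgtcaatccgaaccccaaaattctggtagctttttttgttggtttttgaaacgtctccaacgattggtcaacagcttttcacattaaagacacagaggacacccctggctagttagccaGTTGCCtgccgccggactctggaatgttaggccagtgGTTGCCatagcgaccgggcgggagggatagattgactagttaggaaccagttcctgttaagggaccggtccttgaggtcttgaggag
Cfap46: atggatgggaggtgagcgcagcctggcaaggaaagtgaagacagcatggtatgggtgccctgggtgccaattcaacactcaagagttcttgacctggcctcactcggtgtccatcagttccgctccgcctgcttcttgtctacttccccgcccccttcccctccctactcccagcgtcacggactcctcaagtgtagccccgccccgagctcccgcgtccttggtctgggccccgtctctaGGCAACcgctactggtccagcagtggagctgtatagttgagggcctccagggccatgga
Dnah10: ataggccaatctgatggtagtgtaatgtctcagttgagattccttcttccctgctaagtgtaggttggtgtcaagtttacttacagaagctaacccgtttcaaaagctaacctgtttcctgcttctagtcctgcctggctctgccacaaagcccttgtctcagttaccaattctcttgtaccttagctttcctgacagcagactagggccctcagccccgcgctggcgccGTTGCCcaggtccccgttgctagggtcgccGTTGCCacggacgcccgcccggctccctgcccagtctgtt
Stpg1 and Dnah10 hold 2 matches each, and Cfap46 holds 1 on the opposite strand. No window of Cfap126 held a match, and Cfap97 has no window in the table.

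The other 11 tested axonemal genes were not called. Dnah6, an inner arm heavy chain, had 0.534, 0.272, 0.520 and 0.686 CPM in the YY1 KO hearts, against 0.775, 0.641, 0.948 and 1.07 CPM in the control hearts. Its groups overlapped and the log2 fold change was −0.76 ± 0.34. Dnah8, a heavy chain known from the outer arms of sperm tails, had 0.653, 0.340, 0.325 and 1.25 CPM in the YY1 KO hearts, against 0.423, 0.641, 2.02 and 1.96 CPM in the control hearts, with overlapping groups and a log2 fold change of −0.97 ± 0.61. Cfap43, known from sperm flagella, had 1.31, 1.97, 1.75 and 2.12 CPM in the YY1 KO hearts, against 0.986, 1.495, 1.14 and 1.64 CPM in the control hearts. The ranges of Cfap43 overlapped as well, and its log2 fold change was 0.44 ± 0.26.

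Cfap36, the axonemal gene with the highest level per length, had 16.6, 14.601, 12.9 and 14.3 CPM in the YY1 KO hearts, against 16.8, 14.5, 14.2 and 14.8 CPM in the control hearts. Its means were 14.59 ± 1.55 CPM in YY1 KO hearts and 15.1 ± 1.18 CPM in control hearts (SD, n = 4 each), a log2 fold change of −0.05 ± 0.11. Cfap20, a protein of the inner junction between the doublet's tubules, was similarly placed at −0.13 ± 0.09. Cfap69, Cfap74 and Cfap45 had log2 fold changes of 0.41, 0.06 and −0.32. The heavy chains Dnah17, Dnah2 and Dnah7b had −0.07, −0.16 and −0.22. Dnah7b and Dnah7a are near-identical copies whose reads a counter can drop or split, so both values are uncertain.

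For some of these genes many reads came from the opposite strand. The libraries kept strand, and the counts used here ignore it. Of strand-resolved reads, 93.6% lay opposite to Dnah17, 60.2% opposite to Cfap43 and 54.0% opposite to Dnah2, against 2.66 to 5.31% over all genes of a library. On the annotated strand Dnah17 had 37 reads in the YY1 KO libraries and 31 in the control libraries. On the other strand, which holds Pgs1, lay 550 reads in the YY1 KO libraries and 438 in the control libraries. The counts that ignore strand held only 200 reads of Dnah17, so 93.6% is not the share within those counts. Cfap74 had 37.1% and Cfap45 21.95% of reads on the opposite strand. The 5 called axonemal genes had 1.18 to 7.23% over the 8 libraries, and all 5 were also called higher from annotated-strand reads alone. In the control libraries, which held few reads of most of them, Cfap126 had 18.8%, Dnah10 10.5% and Cfap46 9.09%. In the YY1 KO libraries these had 5.24, 5.65 and 0.633%. Cfap97 had 4.19% in control and 3.92% in YY1 KO libraries, and Stpg1 had 0% in control and 2.30% in YY1 KO libraries.

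**Figure D3:**
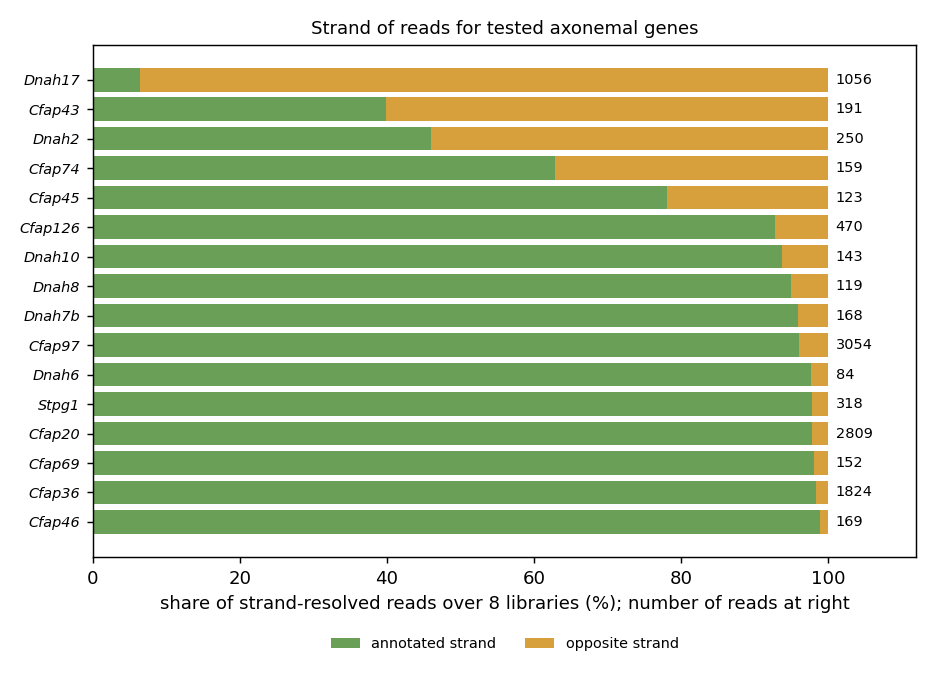
Share of strand-resolved reads on the annotated strand (green) and the opposite strand (orange), in percent over 8 libraries, for the 16 tested axonemal genes, with the number of reads at right. Dnah17, Cfap43 and Dnah2 have most reads on the opposite strand, and the called genes Stpg1, Cfap46, Cfap126, Dnah10 and Cfap97 have at most 7.23% there.

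Another 14 axonemal genes fell under the filter on low counts, which asks for about 0.648 CPM in 4 libraries. They were Cfap44, Cfap52, Cfap53, Cfap57, Cfap58, Cfap61, Cfap70, Cfap221, Stpg2 and the heavy chains Dnah1, Dnah5, Dnah7a, Dnah9 and Dnah11. Together they reached 2.04 to 2.49 CPM in YY1 KO libraries and 1.52 to 2.04 CPM in control libraries. Dnah11, a heavy chain of respiratory cilia, had 0 reads in all 8 libraries.

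Dnah5, the outer arm heavy chain of airway cilia, was the one gene under the filter whose groups did not overlap. Dnah5 had 0.475, 0.136, 0.0650 and 0.374 CPM in the YY1 KO hearts, against 0, 0, 0 and 0.0632 CPM in the control hearts. These values rest on 17 reads in the YY1 KO libraries and 1 read in the control libraries, all on the annotated strand. It was called higher when no filter was applied.

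The IFT-B complex carries cargo toward the ciliary tip. All 11 of its genes under Ift symbols were tested and called higher, and their median log2 fold change was 0.57. IFT subunits under other symbols are given further below, and most of those tested were not called. The 11 genes under Ift symbols summed to 287 to 322 CPM in YY1 KO libraries and 194 to 228 CPM in control libraries. Ift74 (chr4:94614491-94693229, plus strand), which with Ift81 forms the module that binds tubulin, had 10.3, 13.5, 11.5 and 9.79 CPM in the YY1 KO hearts, against 6.06, 4.27, 5.24 and 4.55 CPM in the control hearts. The lowest YY1 KO heart lay well above the highest control, and the log2 fold change was 1.16 ± 0.16.

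Ift81 had 49.98, 51.2, 57.4 and 50.3 CPM in the YY1 KO hearts, against 43.5, 30.5, 23.9 and 28.1 CPM in the control hearts. The YY1 KO hearts were close together, control 1 was the highest of a wide control group, and the log2 fold change was 0.73 ± 0.17. Ift88, a subunit of the IFT-B core whose loss is widely used to remove cilia in mice, had 13.4, 11.7, 12.5 and 12.8 CPM in the YY1 KO hearts, against 8.45, 7.69, 6.13 and 7.71 CPM in the control hearts. The groups lay apart with a log2 fold change of 0.75 ± 0.13.

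Ift46, another core subunit, had 20.2, 24.2, 21.9 and 22.8 CPM in the YY1 KO hearts, against 15.5, 16.02, 15.4 and 15.2 CPM in the control hearts, a narrow spread in both groups and a log2 fold change of 0.52 ± 0.09. Ift20, which also acts at the Golgi, had 30.6, 31.9, 32.4 and 28.2 CPM in the YY1 KO hearts, against 24.0, 25.6, 26.0 and 24.7 CPM in the control hearts. The groups of Ift20 came near each other without overlap, and 0.30 ± 0.08 was the smallest log2 fold change among the called genes. Ift20 lost its call without YY1 KO 3.

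The 6 other IFT-B genes under Ift symbols had log2 fold changes between 0.42 and 0.70. Ift57 and Ift80, of the peripheral part of the complex, had 0.70 ± 0.14 and 0.66 ± 0.16. Ift172, the largest subunit, averaged 84.4 ± 8.32 CPM in YY1 KO hearts and 63.0 ± 5.30 CPM in control hearts (SD, n = 4 each), a log2 fold change of 0.42 ± 0.10. Ift52 had 0.53 ± 0.14. The small GTPase Ift27 had 0.57 ± 0.13 and the GTPase Ift22 0.42 ± 0.15. Ift22 was at the edge of the threshold, and its call was lost when any single library was left out.

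The promoters of Ift57 (chr16:49699044-49699343, plus strand) and Ift172 (chr5:31291065-31291364, minus strand) are shown as IFT-B genes that hold GTTGCC, in capitals as above.
Ift57: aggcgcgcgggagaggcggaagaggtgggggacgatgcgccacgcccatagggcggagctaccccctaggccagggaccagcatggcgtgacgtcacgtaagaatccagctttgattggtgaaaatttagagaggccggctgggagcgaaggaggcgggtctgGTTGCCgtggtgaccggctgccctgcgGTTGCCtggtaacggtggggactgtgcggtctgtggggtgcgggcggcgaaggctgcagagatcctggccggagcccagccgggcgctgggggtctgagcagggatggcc
Ift172: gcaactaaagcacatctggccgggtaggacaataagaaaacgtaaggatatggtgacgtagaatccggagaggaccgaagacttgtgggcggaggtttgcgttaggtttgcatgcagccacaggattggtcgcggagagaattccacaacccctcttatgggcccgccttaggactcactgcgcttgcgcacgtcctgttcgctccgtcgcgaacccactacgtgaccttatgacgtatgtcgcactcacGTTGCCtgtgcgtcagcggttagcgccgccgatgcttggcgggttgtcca
Ift57 holds 2 matches before its start and Ift172 holds 1 at its start. In Ift57 the match nearer the start is followed after 1 base by ggtaac.

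The IFT-A complex, which returns from the tip, has 3 genes under Ift symbols, and 2 were called higher. Ift43 (chr12:86082541-86162459, plus strand) had 34.8, 31.4, 35.8 and 33.5 CPM in the YY1 KO hearts, against 16.8, 18.8, 17.9 and 17.5 CPM in the control hearts. Each group was narrow, with the highest value at most 1.14 times the lowest, and the log2 fold change was 0.93 ± 0.08. Tgfb3, the gene of a transforming growth factor 3500 bases away on the other strand, was also called higher, with a log2 fold change of 1.33.

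Ift140, a large scaffold subunit of IFT-A, had 17.5, 14.5, 18.1 and 14.9 CPM in the YY1 KO hearts, against 10.9, 12.4, 11.9 and 10.2 CPM in the control hearts and a log2 fold change of 0.51 ± 0.12. Its groups did not overlap. Ift122 (chr6:115853470-115926699, plus strand), also a scaffold subunit, had 41.1, 21.3, 27.6 and 39.9 CPM in the YY1 KO hearts, against 16.3, 39.2, 97.9 and 65.6 CPM in the control hearts. Control 3 was 5.99 times control 1, the groups overlapped, and the log2 fold change of −0.75 ± 0.46 was not called. Without control 1, Ift122 was called lower. Within the Xist-holding libraries its log2 ratio was −0.02, and within the Y-holding libraries it was −1.49.

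The BBSome was mixed, with 3 of 7 genes called higher and a median log2 fold change of −0.01. Ttc8 (chr12:98920574-98983238, plus strand) had 11.2, 7.95, 10.6 and 8.35 CPM in the YY1 KO hearts, against 3.94, 4.13, 3.47 and 3.29 CPM in the control hearts. All YY1 KO hearts stood near or above 2 times the highest control, and the log2 fold change was 1.36 ± 0.17. Bbs5, which binds membrane lipids, had 3.98, 6.59, 5.78 and 6.05 CPM in the YY1 KO hearts, against 3.59, 3.70, 3.16 and 3.54 CPM in the control hearts. Its groups came close without overlap at a log2 fold change of 0.68 ± 0.19, and the call was lost without YY1 KO 2, without YY1 KO 3 and in the annotated-strand counts.

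Bbs7, a propeller subunit, had 11.5, 7.88, 10.6 and 10.6 CPM in the YY1 KO hearts, against 7.39, 7.83, 6.51 and 6.64 CPM in the control hearts. The lowest YY1 KO heart was barely above the highest control, and the call, at 0.52 ± 0.15, was lost without YY1 KO 1, without YY1 KO 3, without control 3 and without control 4. Its promoter (chr3:36613340-36613639, minus strand) is shown because among the called genes it alone holds the whole X-box searched. The capitals mark the X-box, which includes a GTTGCC, and one match to a motif of YY1.
Bbs7: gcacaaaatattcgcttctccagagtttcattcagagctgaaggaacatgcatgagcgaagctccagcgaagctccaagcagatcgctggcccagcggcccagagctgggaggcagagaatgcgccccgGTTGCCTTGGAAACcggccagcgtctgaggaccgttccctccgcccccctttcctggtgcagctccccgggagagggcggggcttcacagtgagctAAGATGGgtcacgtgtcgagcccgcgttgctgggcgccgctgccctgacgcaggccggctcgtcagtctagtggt

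The other 4 BBSome genes were not called, and none of their groups was apart. Bbs9 averaged 8.56 ± 0.840 CPM in YY1 KO hearts and 10.5 ± 1.503 CPM in control hearts, Bbs1 5.31 CPM in YY1 KO hearts and 6.78 CPM in control hearts, Bbs2 10.3 CPM in YY1 KO hearts and 12.96 CPM in control hearts and Bbs4 4.87 CPM in YY1 KO hearts and 4.89 CPM in control hearts. Their log2 fold changes were −0.30, −0.35, −0.33 and −0.01. Genes of the same complex thus lay on both sides of 0.

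BBS10 and BBS12 are chaperonin-like proteins needed to assemble the BBSome. Bbs10 had 5.10, 5.91, 6.89 and 7.23 CPM in the YY1 KO hearts, against 3.73, 2.49, 2.27 and 2.47 CPM in the control hearts. Control 1 stood above its group and below every YY1 KO heart, and the log2 fold change was 1.20 ± 0.21. Bbs12 had 2.43, 1.83, 3.12 and 2.68 CPM in the YY1 KO hearts, against 1.55, 1.14, 2.08 and 2.78 CPM in the control hearts, with overlapping groups and 0.41 ± 0.30.

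Over all promoters in the RefSeq table, 48 of the 53 genes had a window, and 4 motifs were searched on both strands. These were chosen with the results known. GTTGCC stood in the windows of 10 of the 19 called genes with one (52.6%), beside 14.8% of tested genes and 12.5% of all windows of the same length. The called genes whose windows held no GTTGCC were Cfap126, Bbs10, Ttc8, Ift20, Ift22, Ift43, Ift46, Ift52 and Ift74. By class GTTGCC stood in 9 of 28 axonemal genes (32.1%) and 8 of 20 transport genes (40.0%). These include Bbs1, Cfap20, Cfap74 and Dnah7b, which were not called. They also include Cfap44, Cfap58 and Dnah7a, which fell under the filter. The whole X-box was searched as GTTNCC and GGNAAC with any 2 bases between them, and GTTGCC can be a part of it. It was found in Bbs7 alone among the called genes, and in 0.595% of tested genes. Other spacings of the arms, such as that in Ift57, were not searched.

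The short YY1 motif CCATNTT stood in 4 of the 19 called genes (21.1%), which were Bbs7, Ift27, Ift52 and Ift88, beside 17.3% of tested genes. The long YY1 motif AANATGGCG stood in 0 of the 19, beside 5.65% of tested genes. It overlaps CCATNTT read on the other strand. A match is a run of letters and not a measured site, and no binding was measured in these hearts.

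Of the called genes, Ift43 and Ttc8 lie on the chromosome of Yy1, at 22.6 and 9.81 Mb from it. Dnah11 lies there too, 9.06 Mb away, and had no reads. The remaining 20 called genes lie on other chromosomes.

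Genes of cilia that the symbols did not take were read from 12 lists made with earlier results of these data known. Of 133 such genes tested, 45 were called higher and 7 lower, or 33.8% higher, beside 21.6% over all genes. The median log2 fold change over the 133 was 0.22. The counts of each list below stand beside the same 21.6% called higher and 17.3% called lower over all genes. Adjusted p-values of these genes are from the edgeR quasi-likelihood test, adjusted by Benjamini-Hochberg over all tested genes.

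Of the motors of intraflagellar transport and their cargo adaptors, 7 of 12 tested genes were called higher and 0 lower. Dync2li1, the light intermediate chain of dynein-2, had 13.8, 12.6, 13.1 and 12.2 CPM in the YY1 KO hearts, against 4.16, 3.99, 3.73 and 4.30 CPM in the control hearts. No YY1 KO heart came near the controls, and the log2 fold change was 1.67 ± 0.12 (adjusted p = 0.000109). Tctex1d2, a dynein-2 light chain, had 1.28 ± 0.17 (adjusted p = 0.000738), and the heavy chain Dync2h1 had 0.93 ± 0.17 (adjusted p = 0.00266). The other 4, named after their values were seen, were the kinesin-2 subunits Kif3a (0.44), Kif3b (0.55) and Kifap3 (0.40) and the dynein-2 intermediate chain Wdr34 (0.47), given as log2 fold changes. The call of Wdr34 was lost without YY1 KO 3 and without control 2.

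IFT subunits under other symbols were called higher in 3 of 9 tested. Ttc26, known as IFT56, averaged 6.16 ± 1.079 CPM in YY1 KO hearts and 2.55 ± 0.533 CPM in control hearts, with a log2 fold change of 1.27 ± 0.21 (adjusted p = 0.00202). Wdr35, the IFT-A subunit IFT121, had 0.51 ± 0.12 (adjusted p = 0.00825), and Cluap1, or IFT38, 0.35 ± 0.10 (adjusted p = 0.0214). The call of Cluap1 was lost without YY1 KO 3, without control 2 and without control 4. With these, 16 of 23 tested IFT subunits were called higher. The 6 others tested under other symbols were not called, and 3 of the 9 had a negative log2 fold change. The 6 ran from −0.58 (Ttc30a1) to 0.33 (Hspb11), both named after their values were seen. For Ttc30a1 all YY1 KO hearts lay below all control hearts.

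BBSome partners were called higher in 3 of 8. Bbip1, a small BBSome subunit also called BBS18, averaged 31.9 ± 2.24 CPM in YY1 KO hearts and 16.7 ± 1.81 CPM in control hearts, a log2 fold change of 0.93 ± 0.10 (adjusted p = 0.000402). Arl6, the GTPase that recruits the BBSome to membranes, had 0.83 ± 0.16 (adjusted p = 0.00435). Sdccag8, a centrosomal protein, had 0.56 ± 0.10 (adjusted p = 0.00234).

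For structures of the motile axoneme beyond the Dnah and Cfap symbols, many genes lay under the filter, among them 8 of 11 of the nexin-dynein regulatory complex and ruler and 11 of 17 of the radial spoke and central pair. The nexin-dynein regulatory complex links neighbouring doublets, and 3 genes of the joint list of this complex and the ruler were tested. Gas8 averaged 15.4 ± 1.26 CPM in YY1 KO hearts and 7.87 ± 0.878 CPM in control hearts, a log2 fold change of 0.96 ± 0.12 (adjusted p = 0.00064). Lrrc48, or DRC3, had 1.24 ± 0.21 (adjusted p = 0.00204), while Ccdc39, whose reads were 94.3% on the opposite strand, had 0.14 ± 0.23 and was not called.

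Of 6 tested genes of radial spokes and the central pair, 3 were called higher. Rsph3a had 0.75 ± 0.12 (adjusted p = 0.00165), Nme5 1.11 ± 0.29 (adjusted p = 0.0159) and Rsph1 1.13 ± 0.33 (adjusted p = 0.0232). Rsph1 averaged 0.959 CPM in YY1 KO hearts and 0.439 CPM in control hearts, and lost its call without YY1 KO 1, without YY1 KO 3, without control 3 and without control 4.

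Of the dynein arm subunits 2 of 8 were called higher. The light chain Dnal1 had 0.64 ± 0.13 (adjusted p = 0.00491), and the intermediate chain Wdr78 had 0.74 ± 0.26 (adjusted p = 0.0454), a call lost without any single library other than control 3. Ccdc114, which docks outer arms, was not called at −0.61 ± 0.26, with means of 1.37 CPM in YY1 KO hearts and 2.09 CPM in control hearts. Without control 3 it was called lower.

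Assembly factors of the dynein arms were called higher in 4 of 8 and lower in 1. Pih1d1 had 0.62 ± 0.08 (adjusted p = 0.000853), Dnaaf2 1.05 ± 0.19 (adjusted p = 0.00303) and Ruvbl1 0.48 ± 0.11 (adjusted p = 0.0081). The call of Dyx1c1, at 1.52 ± 0.52, and the lower call of Ruvbl2, at −0.42 ± 0.13, were picked out after their values were seen. Dyx1c1 lost its call when any library but YY1 KO 1 was left out, and Ruvbl2 lost its call without YY1 KO 1, without control 2 and without control 4. Pih1d1, Ruvbl1 and Ruvbl2 also serve chaperone complexes outside cilia. Of Dnaaf2 reads 45.4% lay on the opposite strand. Among proteins of the doublet's lumen and tubulin tips 2 of 7 were called higher, Nme7 at 1.29 ± 0.15 (adjusted p = 0.000472), with 67.9% of its reads on the opposite strand, and Ribc1 at 1.70 ± 0.41 (adjusted p = 0.0109).

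Enkur, a protein of the doublet's lumen, had 0.831, 5.84, 1.88 and 0.624 CPM in the YY1 KO hearts, against 0.845, 0.498, 0.758 and 0.632 CPM in the control hearts. Most of the YY1 KO level came from YY1 KO 2. The log2 fold change was 1.72 ± 0.69 and was not called, and without YY1 KO 2 it was 0.69. It was called higher without YY1 KO 1 and without YY1 KO 4.

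All listed genes of the base of the cilium that were in the tables passed the filter. In the transition zone, the gate between cilium and cell, 8 of 24 genes were called higher and 2 lower. B9d1 averaged 7.78 ± 0.260 CPM in YY1 KO hearts and 3.36 ± 0.373 CPM in control hearts, a log2 fold change of 1.21 ± 0.14 (adjusted p = 0.000481). Cep290 had 1.30 ± 0.19 (adjusted p = 0.00114). The 2 genes called lower, named after their values were seen, were Cc2d2a at −0.86 ± 0.18 (adjusted p = 0.00568) and Mks1 at −0.64 ± 0.22 (adjusted p = 0.047). Mks1 kept its call only without control 4 when single libraries were left out.

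Among genes of the distal appendages and basal body, which anchor the cilium, 10 of 25 were called higher and 2 lower. Ofd1 averaged 24.0 ± 3.71 CPM in YY1 KO hearts and 11.2 ± 1.67 CPM in control hearts, with 1.10 ± 0.15 (adjusted p = 0.000859). Cep164 had 0.71 ± 0.10 (adjusted p = 0.00101) and Fbf1 0.43 ± 0.07 (adjusted p = 0.00206). The genes called lower, again named after their values were seen, were Cep97 at −0.50 ± 0.15 and the GTPase Rab8a at −0.30 ± 0.09. Cep97 lost its call without YY1 KO 2, without YY1 KO 3 and without control 4, and Rab8a without each of 5 of the 8 libraries (YY1 KO 1 to 3, control 3 and control 4).

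**Figure D4:**
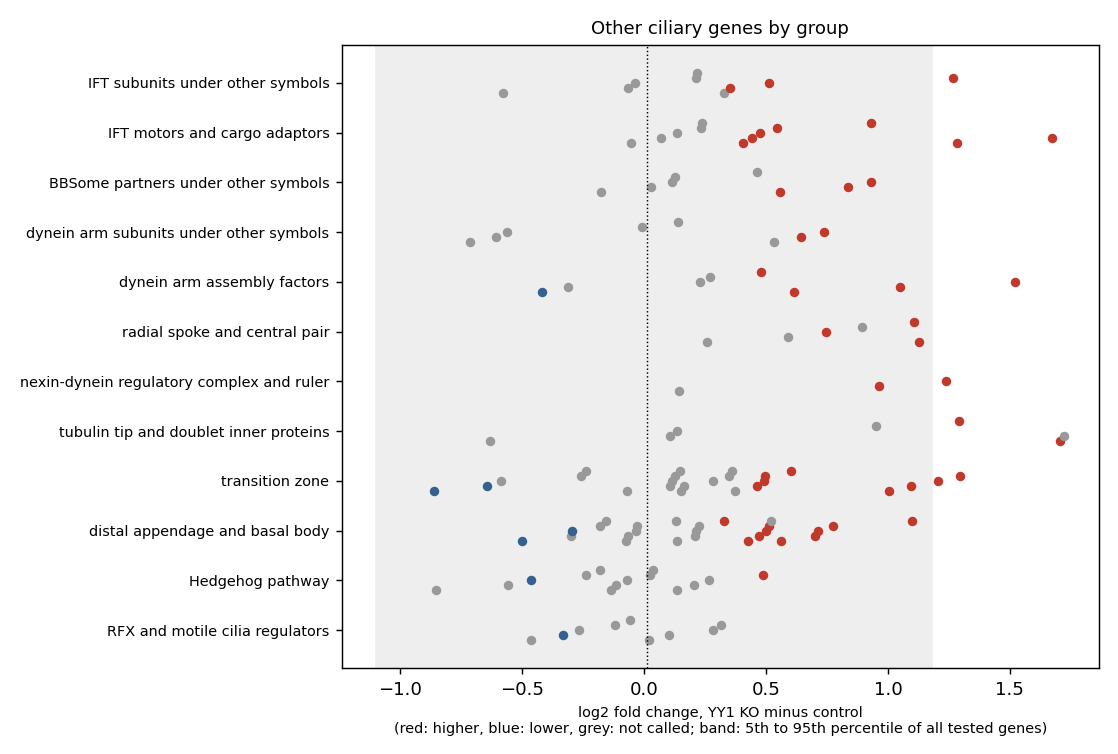
Log2 fold change, YY1 KO minus control, of the 133 tested ciliary genes that the symbols did not take, one row per list, with red points called higher, blue points called lower and grey points not called; the band spans the 5th to 95th percentile of all tested genes, at −1.10 and 1.18. Ribc1 at 1.70 and Dync2li1 at 1.67 are the highest called points, and the Hedgehog and regulator rows hold few called points.

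Of the Hedgehog pathway, which signals through primary cilia, 1 of 14 tested genes was called higher and 1 lower. Ptch1, the receptor that is also induced by the pathway, had 8.67, 9.85, 8.64 and 7.48 CPM in the YY1 KO hearts, against 12.5, 13.4, 11.2 and 10.7 CPM in the control hearts, a log2 fold change of −0.46 ± 0.13 (adjusted p = 0.0194). Evc, a ciliary protein needed for the signal, had 0.49 ± 0.14 (adjusted p = 0.0215). The call of Ptch1 was lost without YY1 KO 3 and without control 2, and that of Evc without YY1 KO 1, without YY1 KO 3 and without control 4. Gli1, a target of the pathway, had 1.48, 1.22, 1.36 and 1.81 CPM in the YY1 KO hearts, against 1.20, 3.06, 3.22 and 3.16 CPM in the control hearts. Control 1 lay within the range of the YY1 KO hearts, and −0.85 ± 0.33 was not called, but it was called lower without control 1.

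Regulators of ciliary genes were called in 1 of 9 tested. E2f4, a partner in the multiciliated programme that also controls the cell cycle, averaged 29.6 ± 2.97 CPM in YY1 KO hearts and 37.3 ± 2.77 CPM in control hearts, −0.33 ± 0.10 (adjusted p = 0.0252). The call was lost without YY1 KO 2, without YY1 KO 3, without control 3 and without control 4. E2f5 (−0.47 ± 0.20) and Rfx1 (−0.27 ± 0.13) were not called, though Rfx1 was called lower without control 1. Rfx2 and Rfx3, given because they are the RFX factors best known from ciliated cells, had log2 fold changes of 0.32 and −0.06 and were not called.

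Defining markers of multiciliated cells were at or near 0. Foxj1, the master factor of motile cilia, had 12 reads in all 8 libraries and at most 0.187 CPM in any, and Mcidas, Gmnc and Trp73 had 0. Of 12 listed markers of multiciliated epithelium, Pifo and Sntn had 0 reads and the 9 under the filter had at most 28 reads each. The 3 tested were Rsph1, above, and Tppp3 and Mlf1, which heart also expresses and which were called lower. The summed level of the 12 was 41.0 to 62.8 CPM in YY1 KO libraries and 84.8 to 172 CPM in control libraries. Of 11 markers of lung epithelium 0 reached the filter, and together they had 1.18 to 1.48 CPM in YY1 KO libraries and 0.704 to 1.39 CPM in control libraries.

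Markers of other cell types of the heart were also counted. Over all tested genes, 21.6% were called higher and 17.3% lower. Endothelial markers were called lower in 7 of 9, with sums of 1209 to 1520 CPM in YY1 KO libraries and 1764 to 2428 CPM in control libraries. Markers of pericytes and smooth muscle were called lower in 3 of 9 (Rgs5, Kcnj8 and Abcc9) and higher in 1 (Cnn1), with sums of 780 to 959 CPM in YY1 KO libraries and 1127 to 1358 CPM in control libraries. Fibroblast markers were called higher in 1 of 9 (Pdgfra), with sums of 4005 to 7411 CPM in YY1 KO libraries and 2993 to 5755 CPM in control libraries. Mesothelial markers were called in 0 of 5, with sums of 27.4 to 46.5 CPM in YY1 KO libraries and 22.3 to 36.6 CPM in control libraries. The fibroblast and mesothelial sums overlapped between the groups. Cardiomyocyte markers were called higher in 1 of 9 (Mybpc3) and lower in 2 (Actc1 and Myl2). Leukocyte markers were called higher in 1 of 6 (S100a9), neuronal and Schwann cell markers higher in 1 (Tubb3) and lower in 1 (Dbh) of 6, and skeletal muscle markers higher in 1 (Tnnt3) and lower in 1 (Ckm) of 3. The single adipocyte marker tested, Fabp4, was called lower and is on the endothelial list too. The part of cell makeup in the ciliary differences was not tested.

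The mice within a group gave another view of the 5 called axonemal genes. Their log2 levels were centred within each group and averaged, and every other tested gene was compared with that profile over the 8 libraries. The nearest were Tssc4 (Pearson r = 0.97), the splicing helicase Dhx38 (0.96), the inhibitory receptor Lilrb4a (0.96), the immune cell receptor Cd84 (0.95) and Tlr13, a sensor of bacterial RNA (0.94). These are the highest of all tested genes outside the set and are given as a description. With all tested genes ranked over 8 libraries, values of r this high can arise by chance, which was not tested.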

How the data were processed

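Heart RNA of 4 YY1 KO and 4 control mice was measured, with groups taken from the labels. Each deposited table gives unnormalized read counts by gene symbol, irrespective of strand and for each strand. Trimmomatic, STAR and the build mm10 are named in the submitters' processing notes; the sources used here give no versions, settings or annotation. Reads mapping to several places, or over more than 1 gene, are not counted, so paralogs and overlapping genes are undercounted. Lines that name no gene, 33.0 to 38.9% of reads, were left out.

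The genes and lists were chosen with earlier results of these data known. Counts irrespective of strand were fitted in edgeR 4.0.16 by robust quasi-likelihood with TMM scaling and group as the single term, after filterByExpr (minimum count 10, equal to 0.648 CPM, in 4 libraries), and F tests took Benjamini-Hochberg adjustment over 13506 genes and a threshold of 0.05. CPM uses TMM-scaled library sizes. Standard errors are the fold change divided by the root of F. Positions and exon lengths came from GENCODE M21 (GRCm38, the assembly of mm10), which held 24026 of 24411 symbols and all 53 ciliary genes, and promoters are RefSeq windows of GRCm38.p6. Profiles were compared on log2 CPM with a prior count of 2.

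The text names all 53 genes, and gives every library for the 8 axonemal and 6 transport genes with the smallest p and the highest of each class per length; other called genes of interest are also given in full, chosen after their values were seen. Of each other list it names up to 3 tested genes with the smallest p, of which 1 is not reported here. Over 13385 genes simulated for this design, 63.9% of 2-fold and 17.0% of 1.5-fold changes were recovered, and 8.14% of calls were false. The simulation gave 86 calls, against 2911 higher and 2337 lower calls in the data. The adjusted threshold depends on the number of changed genes, so these rates need not hold for the data. Every pair of libraries within a group differed beyond sampling noise (13.9 to 91.99 for chi-square over its degrees of freedom). Alternatives were RLE, upper quartile and library-size scaling, DESeq2 1.42.0, limma-voom 3.58.1, 2 other filters, annotated-strand counts, a replicate block, a term for Xist, leaving out each library, and fits within the Xist-holding and the Y-holding libraries. The software was R 4.3.3 with Python 3.11.15 and, for plots, matplotlib 3.10.9.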

Additional observations from a re-analysis of the deposited data

Results flagged for a closer look

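In 4 of the 78 groups checked, 1 library stood far from the other 3 of its group, where chance flags about 1 in 20. Ift81 had 57.4 CPM in YY1 KO 3, above 49.98 to 51.2 CPM in the other YY1 KO hearts. Bbs10 had 3.73 CPM in control 1, above 2.27 to 2.49 CPM in the other controls. Cfap46 had 0 CPM in control 1, below 0.214 to 0.253 CPM in the other controls. Dnah17 had 1.90 CPM in control 3, above 1.57 to 1.62 CPM in the other controls, and its counts come mostly from the opposite strand.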

How the results depend on the processing

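The 5 axonemal calls were kept under every alternative except the fit within the Xist-holding libraries, added after the data were seen, which left 0 of them, 0 of the 17 transport calls, 0 of the 45 higher and 0 of the 7 lower calls among other ciliary genes, and 0 of the 2911 higher and 0 of the 2337 lower calls over all genes. All 22 called ciliary genes kept the sign of their log2 fold change within the Xist-holding libraries, where each genotype had 2 libraries. The fit within the Y-holding libraries, also added later, gave 10 transport calls and 25 higher and 4 lower calls among other ciliary genes. Over all genes the Y-holding libraries gave 1730 higher calls. Leaving out each library in turn gave 13 to 16 higher and 0 to 1 lower transport calls, with Ift122 called lower without control 1, and 3 to 8 lower calls among other ciliary genes. Their lower calls were 2 with library-size scaling. Replicate numbers did not pair the mice (same-number correlations −0.46, 0.34, −0.06 and 0.27). The replicate block kept 18 of the 22 calls, losing Bbs5, Bbs7, Ift20 and Ift22, and gave 4 lower calls among other ciliary genes. Ift22 lost its call in 14 alternatives, the cause of which was not tested. Scaling moved the median of all genes by at most 0.06. Some uncalled genes changed sign. The log2 fold change of Cfap36 was 0.017 with library-size scaling and −0.12 to 0.0092 when each library was left out (positive without YY1 KO 3), that of Ccdc39 was −0.028 to 0.26 when each library was left out (negative without YY1 KO 4), and that of Enkur was −0.017 within the Xist-holding libraries. When each library was left out, the range was −0.14 to 0.16 for Bbs4, −0.59 to 0.28 for Cfap45, −0.15 to 0.18 for Cfap74, −0.39 to 0.018 for Dnah7b and −0.19 to 0.048 for Rfx3. Bbs4 had 0.057 with library-size scaling, 0.030 with limma-voom, 0.018 with the replicate block and 0.067 within the Y-holding libraries, and within the Xist-holding libraries Cfap45 had 0.44 and Dnah17 0.038. With no filter Dnah5 was called higher. Depth limits the genes below about 1 CPM, where controls held few or no reads.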
